A study of Mus musculus with 12 samples.

Results

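Dense ESRRB clusters are stretches of the genome in which 6 or more ESRRB-bound regions lie close together. A region is 1 row of the deposited count table and is called a row below. Rows were sorted by position in the mouse build mm10, neighbours no more than 12.5 kb apart were joined, and rows in clusters of at least 6 rows were kept. The rule used positions alone, and it kept 28480 of 86201 rows (33.0% of the rows outside the mitochondrial chromosome) in 2917 clusters. Another 38015 rows lay in 13771 clusters of 2 to 5 rows, 19702 rows stayed alone, and the 4 mitochondrial rows were left out.

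ESRRB was profiled by ChIP-seq in untreated mouse embryonic stem cells, kept in medium with 10% serum and leukaemia inhibitory factor (LIF). Both groups carry a Nanog knockout and Esrrb in the names their titles give, NanogKO:Esrrb (44J) and NanogKO:Esrrb:Nanog (44JN), and the second adds Nanog. They are called the line without Nanog and the line with Nanog here. Each line has 3 ESRRB libraries, named A, B and C after their table columns, and the 6 input libraries were not used. All samples share the cell line label N{delta}:cE:iN, so the grouping rests on titles, and neither how Esrrb and Nanog are expressed nor whether a line is 1 clone is given in the sources used here. Separate cultures are not stated for the 3 libraries of a line, so the spread behind every p-value may be technical. Reads in rows numbered 2734338 to 8382646 per library, all 3 libraries without Nanog having fewer than any with it. A ChIP table holds no expression, so the stem cell label could not be checked by markers.

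ESRRB is an orphan nuclear receptor that binds DNA as a monomer at an extended single-receptor site and keeps mouse embryonic stem cells in the naive state. NANOG is a homeodomain factor of the same network, and Esrrb is one of its known target genes. Clusters of neighbouring binding sites of such factors are typical of strong enhancers of pluripotency genes in these cells.

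The RefSeq promoter table of GRCm38.p6 covers 250 bases before to 50 bases after each gene start, and the extended site TCAAGGTCA was searched in it on both strands. Of 2541 promoters that overlapped a dense row, 12 held it (0.472%), against 0.450% of 1332 promoters at lone rows and 0.423% of all 32851 promoters. Promoters at clusters of 2 to 5 rows held it more often, in 34 of 3611 (0.942%). The shorter AAGGTCA, which lies inside the longer motif, was in 7.24% of promoters at dense rows, 7.66% at lone rows and 4.72% of all promoters. At clusters of 2 to 5 rows that share was 6.70%. These differences were not tested. The motif lay inside the row itself in 10 of the 12. The 6 promoters with the strongest rows among the 12 are shown because they place the letters that ESRRB is known to bind inside measured dense rows. Capitals mark the motif, which reads TGACCTTGA where it lies on the opposite strand.

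Psap, chr10:60277423-60277543, plus strand: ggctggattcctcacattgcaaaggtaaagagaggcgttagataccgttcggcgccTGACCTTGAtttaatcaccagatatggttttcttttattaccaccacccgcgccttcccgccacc
Hcn2, chr10:79716410-79716530, plus strand: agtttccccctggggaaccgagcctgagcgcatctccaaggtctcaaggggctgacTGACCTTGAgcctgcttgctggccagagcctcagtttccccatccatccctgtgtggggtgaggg
Nfkbid, chr7:30421536-30421656, plus strand: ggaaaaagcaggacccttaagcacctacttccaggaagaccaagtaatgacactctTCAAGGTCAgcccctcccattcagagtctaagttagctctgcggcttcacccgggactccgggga
1700127F24Rik, chr12:112875956-112876076, minus strand: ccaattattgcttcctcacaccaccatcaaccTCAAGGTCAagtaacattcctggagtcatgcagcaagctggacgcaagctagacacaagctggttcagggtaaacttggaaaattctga
Gm30234, chr19:53064706-53064826, minus strand: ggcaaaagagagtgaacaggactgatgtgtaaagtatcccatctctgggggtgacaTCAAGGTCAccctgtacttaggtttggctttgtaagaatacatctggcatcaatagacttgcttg
Sgk1, chr10:21978551-21978671, plus strand: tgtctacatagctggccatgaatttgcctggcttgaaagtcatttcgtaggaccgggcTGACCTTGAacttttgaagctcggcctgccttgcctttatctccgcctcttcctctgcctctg

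Signal is given as CPM, the count of a row scaled to the size of its library, with library sizes adjusted by TMM in edgeR. The Psap row, the strongest of a 30-row cluster at the gene of the lysosomal precursor prosaposin, held 74.6, 66.5 and 74.7 CPM without Nanog and 61.5, 64.7 and 66.8 CPM with it. The libraries of the lines overlapped and the row was not called. The Hcn2 row held 78.7, 58.9 and 82.8 CPM without Nanog and 57.0, 49.2 and 56.2 CPM with it. It fell by 0.44 on the log2 scale (SE 0.12, adjusted p = 0.0117, edgeR quasi-likelihood F test, Benjamini-Hochberg, n = 3 and 3). The Nfkbid row also fell (log2 fold change -0.46), and the Gm30234 row rose (0.81). The Hcn2 and Nfkbid rows each lost the call in 3 of the 6 fits that left out 1 library (without library A or C of the line without Nanog, or library B of the line with it), where they ranged from -0.57 to -0.32 and from -0.60 to -0.34. The Gm30234 row stayed called in all 6 (0.73 to 0.92). Rows holding the same 9 letters were called in both directions with all libraries.

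Dense clusters held 6 to 66 rows with a median of 8, and spanned 4.39 to 215 kb with a median of 31.5 kb. The median gap between neighbouring rows was 2469 bp (quartiles 757 and 5805 bp), and rows covered a median of 12.5% of a cluster. On chromosome 11, 46.0% of rows were dense, the highest share, and on X 14.5%, the lowest. There were 762 clusters with exactly 6 rows, just inside the threshold, and 1115 with 5 rows, just outside it. A protein-coding gene of RefSeq overlapped 2446 clusters, 1083 of which overlapped more than 1, and for 138 of the other 471 the nearest gene lay over 50 kb away. A row at a promoter was present in 1418 clusters.

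Within a cluster, signal was uneven. The strongest row carried a median of 33.0% of a cluster's summed CPM, from 8.45% to 81.1%, and it was the same row in all 6 libraries in 1816 clusters (62.3%). Peak lists were deposited per line, and 92.8% of strongest rows overlapped peaks of both lists, against 71.7% of rows ranked 2 to 3 and 23.9% of the weaker rows. The list with Nanog is the longer, and 59.0% of dense rows overlapped it alone, against 61.4% of all rows and 63.6% of lone rows. The density of rows therefore depends largely on that list, in dense rows no more than in rows generally. In 82 clusters no row overlapped the list without Nanog.

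Dense rows differed little from lone rows in strength per length. Their median width was 374 bp against 320 bp. The log2 of median CPM per kb in dense rows minus that in lone rows was 0.05, 0.05 and -0.01 in the libraries without Nanog and 0.11, 0.16 and 0.03 with it. The mean over the 6 libraries was 0.07 (SD 0.06, exact sign-flip permutation test, two-sided, p = 0.0625, the smallest possible being 0.031). The difference was above 0 in all libraries but C without Nanog. It was larger with Nanog by 0.07, within the spread of the libraries (exact permutation test, two-sided, p = 0.3, n = 3 and 3, the smallest possible being 0.1). That difference was 0.04 without library B of the line with Nanog and 0.10 without its library C. Dense rows took 38.6%, 37.8% and 38.1% of all reads in rows without Nanog and 39.0%, 38.9% and 38.2% with it. The difference of 0.57 percentage points was also within the spread (exact permutation test, two-sided, p = 0.2, n = 3 and 3).

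Of 27920 dense rows tested one by one, 2604 were higher with Nanog (9.33%) and 2361 lower (8.46%) at an adjusted p under 0.05 by the edgeR quasi-likelihood test. Over all 84892 rows tested the shares were 9.42% higher and 9.78% lower, 19.2% in all, so dense rows were called about as often as rows in general. Among lone rows, 9.54% were higher and 10.7% lower. By rank of signal in the cluster, 13.4% of strongest rows were higher and 19.03% lower, against 7.76% and 5.62% of rows ranked 4 and beyond, which hold fewer reads. Dense rows found in both peak lists were higher in 8.43% and lower in 17.3%, and lone rows of the same kind in 6.52% and 23.6%. Rows found in the list with Nanog alone went the other way, with 10.1% higher and 1.46% lower among dense rows. Among lone rows of that kind the shares were 11.4% and 2.35%. Being in a list depends on signal in its line, so the direction in these classes partly follows from how they were picked. None of these differences between row classes was tested. With library B of the line with Nanog left out, 1510 dense rows were higher and 1369 lower. Leaving out A or C of that line gave 1428 and 1562 lower rows.

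Counts summed over each cluster asked whether ESRRB signal of the whole cluster moved with Nanog. The sum was higher with Nanog in 512 clusters (17.6%), lower in 383 (13.1%) and not called in 2022. Over all 36253 stitched units, lone rows included, 12.3% were higher and 11.4% lower, which is 23.7% called against 30.7% of dense clusters. Lone rows were called in 21.1% and clusters of 2 to 5 rows in 25.8%. Lone rows hold fewer reads, with medians of 17 to 48 per library against 269 to 849 in a dense cluster. These differences were not tested. The median log2 fold change of dense clusters was 0.02 and the range -1.13 to 2.10, with 7 clusters rising and 1 falling by 2-fold or more. The libraries of the lines did not overlap in 1324 clusters, which include 501 of those called higher and 363 of those called lower, while 37.5% of all units did not overlap. Clusters with a row at a promoter were called in 25.3% and those without in 35.8%. Without library B of the line with Nanog, 340 clusters were higher and 249 lower, and without its library C 223 were lower. With limma on the mean log-CPM of a cluster's rows in place of the sum, 119 were higher and 39 lower. When each library was left out in turn, 586 to 832 of the 895 called clusters stayed called. All 895 kept their sign, but each such fit reuses most of the libraries that made the call.

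**Figure D1:**
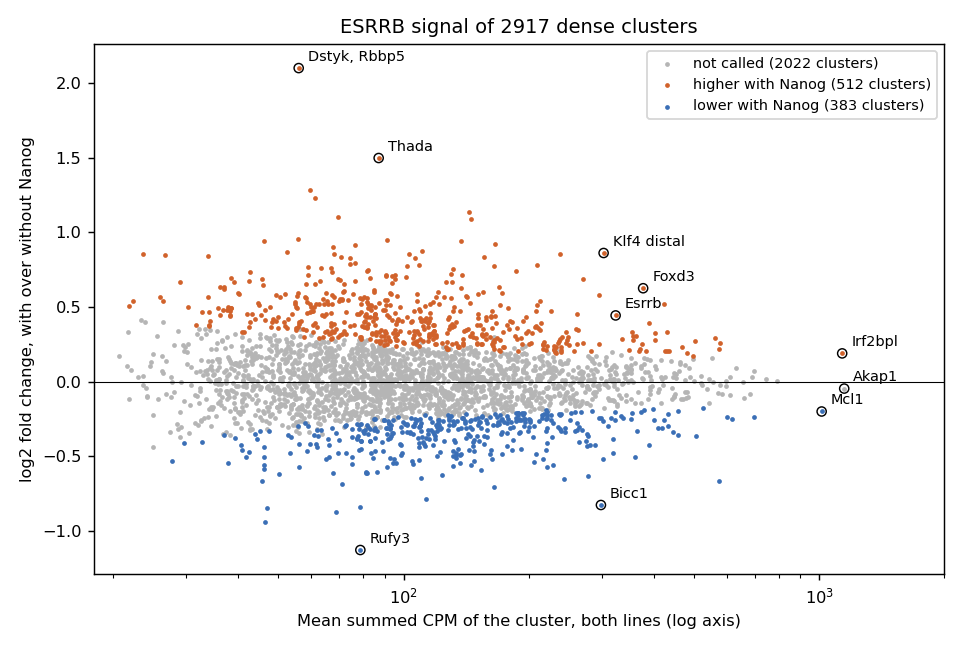
Each point is 1 of the 2917 dense clusters, with its mean summed CPM on the x axis (log axis) and its log2 fold change, with over without Nanog, on the y axis. The 512 clusters called higher and 383 called lower lie on either side of 2022 clusters that were not called, and labelled circles mark clusters described in the text.

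The sum hides movement inside a cluster, so rows of a cluster were also tested against each other. This test, diffSpliceDGE of edgeR, asks whether all rows of a cluster share 1 fold change. Rows had moved apart in 1817 dense clusters (62.3%), and in 31.1% of all 16491 units with 2 or more tested rows. In 1192 of the 1817 the sum was not called. The share rose with the number of rows tested, from 49.8% of clusters with 6 to 7 rows to 93.8% of those with 20 to 66. Single rows were called higher alone in 813 clusters, lower alone in 830, in both directions in 607 and not at all in 667. Without library B of the line with Nanog, 1163 clusters had rows that moved apart.

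**Figure D2:**
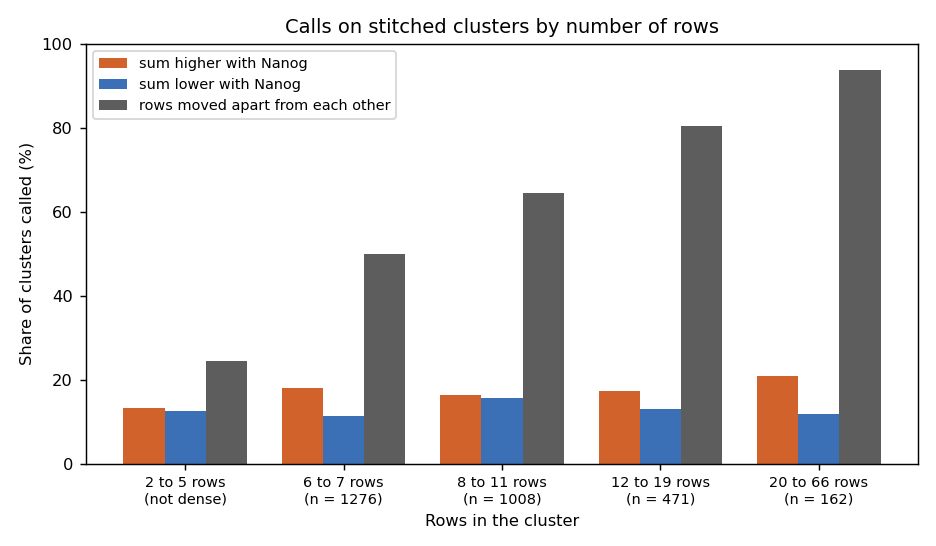
Bars give the share of clusters (%) whose sum was higher or lower with Nanog and whose rows had moved apart from each other, by number of rows, beside clusters of 2 to 5 rows. The share with rows moving apart goes from 24.4% at 2 to 5 rows to 93.8% at 20 to 66 rows, while the shares called by their sum stay between 11.4% and 21.0% in the dense classes.

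Neighbouring rows that were both called mostly moved the same way, and less uniformly the farther apart they lay. The direction was the same in 329 of 346 such pairs up to 1 kb apart (95.1%), in 343 of 420 at 1 to 5 kb (81.7%) and in 175 of 243 at 5 to 12.5 kb (72.0%). In clusters of 2 to 5 rows the shares were 96.5%, 80.9% and 70.5%. Pairs of 1 cluster share libraries and often rows, so no test was made.

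**Figure D3:**
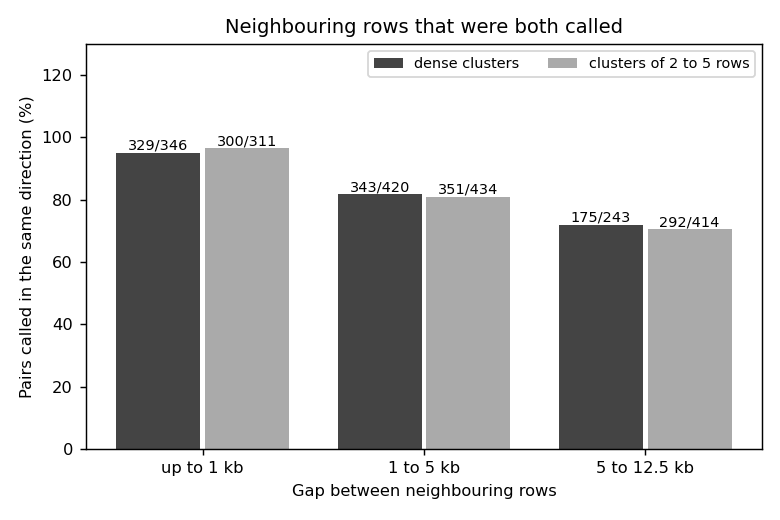
Bars give the share (%) of neighbouring row pairs, both called, that moved in the same direction, by the gap between them, with the counts above each bar. Dense clusters and clusters of 2 to 5 rows show nearly the same decline, from 95.1% to 72.0% in the dense ones.

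The cluster with the most rows lay at Irf2bpl and Cipc, a regulator of the circadian clock, at chr12:86769528-86949288. Its 66 rows summed to 1022, 1115 and 1045 CPM without Nanog and 1162, 1343 and 1123 CPM with it. All libraries with Nanog were above all without it, and the sum was called higher by 0.19 (log2, SE 0.06, adjusted p = 0.0242, edgeR, n = 3 and 3). That call rests on single libraries. The log2 fold change was 0.11 without library B of the line with Nanog (adjusted p = 0.246, edgeR), and 0.16 and 0.18 without A or C of the line without it (adjusted p = 0.107 and 0.0731, edgeR). Of its 63 tested rows, 12 rose and 4 fell. The strongest row held 112, 122 and 133 CPM without Nanog and 107, 127 and 116 CPM with it, and was not called. The row with the largest rise went from 2.22 to 7.35 CPM on average.

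Of the 10 clusters with the most rows, 2 were called higher and 1 lower. The latter, 44 rows over Fbxo47 and 6 other genes at chr11:97883480-98086894, held 799, 677 and 781 CPM without Nanog and 658, 621 and 636 CPM with it. All libraries with Nanog were lower (log2 fold change -0.24, SE 0.06, adjusted p = 0.00653, edgeR, n = 3 and 3), and the call was lost without library A of the line without Nanog (-0.19, adjusted p = 0.0564, edgeR). Beside Irf2bpl, the higher call was that of 37 rows over Apobec3, a cytidine deaminase gene, and Cbx7, a Polycomb subunit gene. They held 477, 385 and 431 CPM without Nanog and 523, 497 and 499 CPM with it, with no overlap (log2 fold change 0.23, adjusted p = 0.0139, edgeR). That call was lost in 1 of the 6 fits without 1 library, without A of the line with Nanog, and the value ranged from 0.16 to 0.31. The cluster over Akap1, which anchors protein kinase A at mitochondria, and Coil, which encodes the Cajal body protein coilin, had 50 rows over 215 kb at chr11:88790686-89005843. It held 1193, 1171 and 1136 CPM without Nanog and 1138, 1142 and 1107 CPM with it, and these ranges overlap. Its rows had moved apart (adjusted p = 6.33e-22, edgeR diffSpliceDGE), with 6 higher and 8 lower. The cluster with 53 rows at Epha2, an ephrin receptor, and Arhgef19 had a log2 fold change of 0.02. Its row with the largest rise went from 0.597 to 3.03 CPM and the one with the largest fall from 4.77 to 0.757 CPM. Over 16 genes that include 15 histone genes and Btn2a2 on chromosome 13, 41 rows held 442 CPM without Nanog and 484 CPM with it, which was not called (log2 fold change 0.13, adjusted p = 0.119, edgeR), though the libraries of the lines did not overlap.

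The cluster at Mcl1, an anti-apoptotic gene of the BCL2 family, was among the 5 strongest in signal. It held 1120.4, 1063 and 1067 CPM without Nanog and 969.9, 943 and 915 CPM with it. Every library with Nanog was lower, and the sum fell by 0.20 (log2, SE 0.05, adjusted p = 0.0056, edgeR, n = 3 and 3), or by 0.18 without library C of the line with Nanog (adjusted p = 0.0522, edgeR). Its strongest row held 451, 364 and 417 CPM without Nanog and 328, 298 and 321 CPM with it. That row fell by 0.38 under TMM, but its log2 fold change was -0.04 with an offset that follows signal strength. The 28.3 CPM of the row with the largest fall became 15.8 CPM.

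The largest rise of a summed cluster was at Dstyk, a dual-specificity kinase, and Rbbp5, a core subunit of the histone H3 lysine 4 methyltransferase complexes, at chr1:132461974-132481921. Its 6 rows held 22.1, 19.5 and 21.8 CPM without Nanog and 91.2, 88.0 and 93.0 CPM with it. The lines were far apart, and the log2 fold change was 2.10 (SE 0.12, adjusted p = 8.55e-11, edgeR, n = 3 and 3). None of the 6 rows overlapped the peak list without Nanog. A single row made most of the rise, from 6.71, 8.13 and 8.43 CPM to 65.8, 65.3 and 74.5 CPM.

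A cluster of 7 rows in Thada rose from 52.4, 44.6 and 41.0 CPM to 117, 131 and 136 CPM (log2 fold change 1.5, SE 0.10, adjusted p = 3.81e-09, edgeR, n = 3 and 3). Here 5 of the 7 rows were called, all higher. The remaining clusters among the 8 with the largest rises were 2 separate clusters over Crtac1 (log2 fold changes 1.29 and 1.09) and those at Adam19 (1.23), Sptlc2 (1.14), Opa1 at 38.3 kb (1.11) and Mtcl1 at 35.3 kb (0.96). Sptlc2 encodes a subunit of the first enzyme of sphingolipid synthesis, and 6 of its 8 rows rose. Opa1 is the inner-membrane fusion protein of mitochondria, and 4 of the 8 rows near it rose.

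The largest fall was at Rufy3, where 6 rows at chr5:88564695-88591718 held 114, 102 and 109 CPM without Nanog and 54.9, 39.9 and 53.4 CPM with it. The log2 fold change was -1.13 (SE 0.11, adjusted p = 2.66e-07, edgeR, n = 3 and 3), and no library of one line reached the range of the other. Only 1 of the 6 rows was called. It carried 74.7% of the signal and went from 90.5 to 27.7 CPM. Falls also passed the test near Skor1 at 63.7 kb (-0.94), Arl4c at 19.3 kb (-0.88) and Rgs3 at 17.96 kb (-0.84), and at Tfap4 (-0.84), Gprc5c (-0.79), and Oser1 with Gdap1l1 (-0.68).

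The fall spread over most rows in the cluster whose nearest gene is Bicc1, an RNA-binding protein gene 65.3 kb away, at chr10:70807046-70857531. Its 15 rows held 382, 362 and 401 CPM without Nanog and 205, 216 and 225 CPM with it (log2 fold change -0.83, SE 0.07, adjusted p = 1.92e-08, edgeR, n = 3 and 3). The lines did not overlap, 11 rows fell and none rose. The falls were unequal: the strongest row went from 90.5 to 63.3 CPM, and another row from 27.2, 22.2 and 37.7 CPM to 4.37, 2.83 and 4.08 CPM. The test of rows against each other gave an adjusted p of 8.94e-22 (edgeR diffSpliceDGE).

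Opposite movement cancelled in the cluster over Hmmr, a spindle protein gene, and Nudcd2 at chr11:40718013-40737944. Its 7 rows summed to 105, 98.7 and 103 CPM without Nanog and 104, 108 and 103 CPM with it, which is level. The first row fell from 42.9, 43.5 and 37.5 CPM to 12.5, 10.5 and 9.05 CPM (log2 fold change -1.94). The last row, 19.4 kb further on, rose from 5.22, 5.05 and 5.10 CPM to 38.2, 42.1 and 39.5 CPM (2.96). Rows between them were not called. This cluster too had an adjusted p of 8.94e-22 in the test of rows against each other (edgeR diffSpliceDGE).

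**Figure D4:**
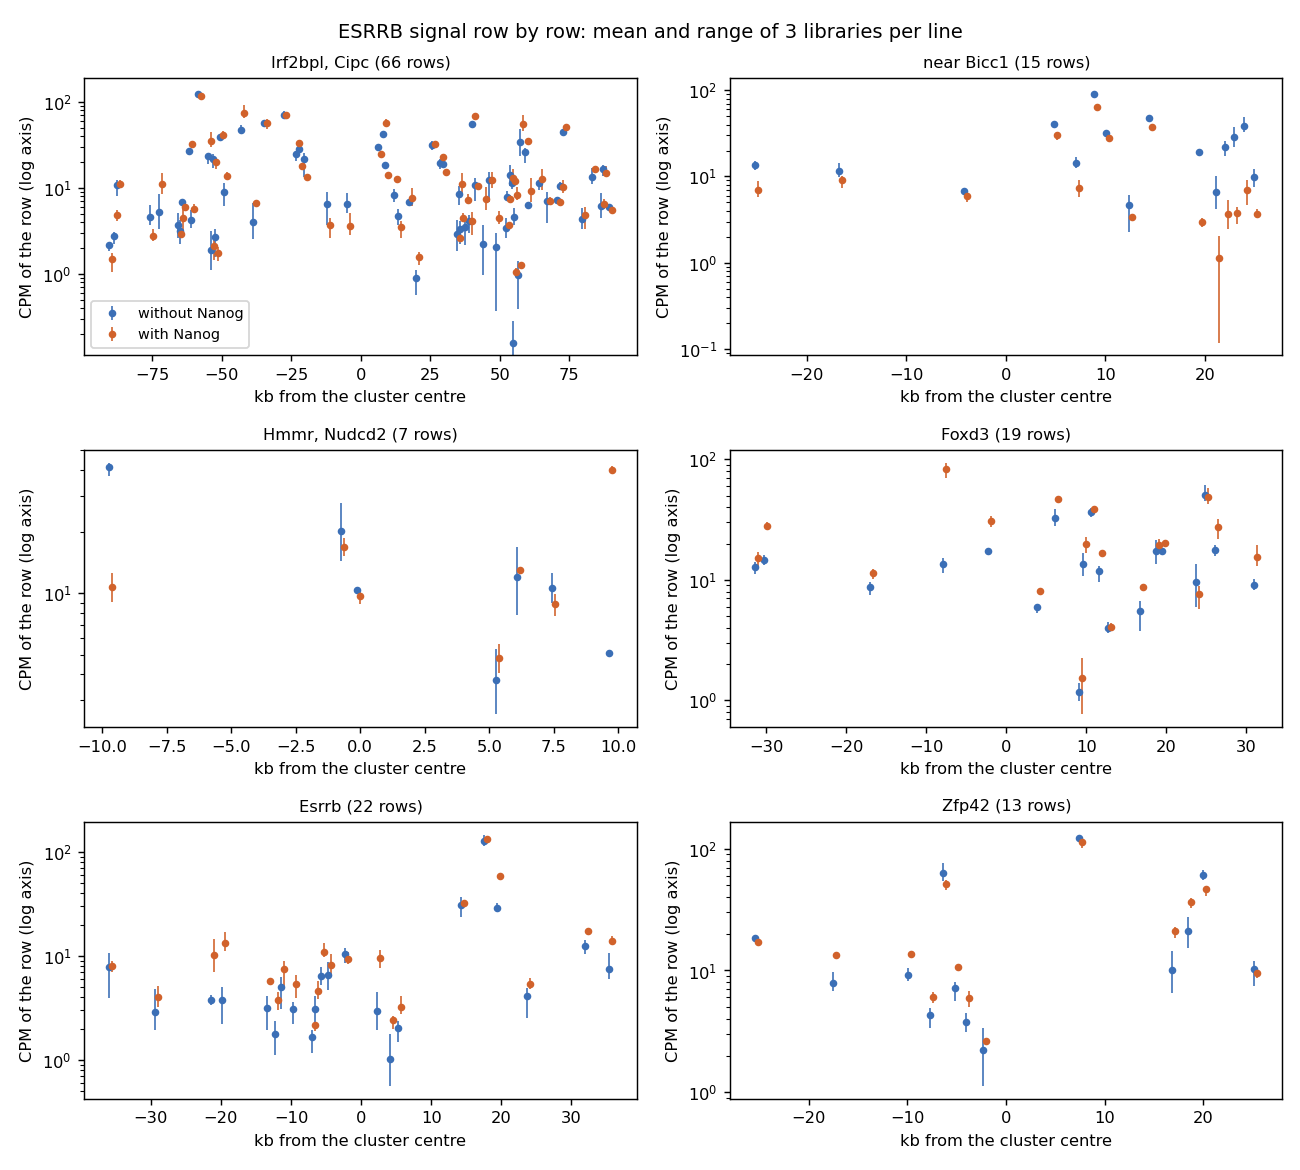
Each panel is 1 dense cluster, with the distance of every row from the cluster's centre in kb on the x axis and its CPM on a log axis; points are means and bars the range of 3 libraries per line, and a bar that runs off the axis reaches a library at 0. The largest falls near Bicc1 gather at the right end, and other rows fall as well, among them the leftmost. The end rows of the Hmmr cluster move in opposite directions, and at Foxd3 1 row goes from 13.4 to 83.3 CPM.

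Genes of 17 lists were looked up among genes that a dense cluster overlaps or, where it overlaps none, that lie nearest within 50 kb. These lists were chosen with results of these data known, and counts describe them without a test. Of 67 named clusters that were called, 22 lost the call under at least 1 alternative. The alternative fits counted here and below leave out limma on the mean log-CPM of rows, which called far fewer clusters. Clusters said below to have risen or fallen kept the call in the fits counted unless stated. Of 21900 protein-coding genes, 4546 (20.8%) had a dense cluster, and of the 2779 clusters at them 478 were higher and 361 lower, with a median log2 fold change of 0.02. Naive pluripotency genes had one in 16 of 18 cases and general pluripotency genes in 16 of 19. The shares were 10 of 16 for formative and primed genes, 12 of 20 for primitive endoderm, 8 of 14 for trophoblast, 2 of 10 for mesendoderm, 3 of 10 for neuroectoderm and 1 of 14 for fibroblast genes.

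At naive pluripotency genes, 5 of 17 clusters were higher with Nanog and none lower, with a median log2 fold change of 0.14. Of the 5, 4 stayed called in every alternative fit, and 8 were called higher when B of the line without Nanog was left out. Among their 237 tested rows 39 were higher and 8 lower. The clearest rise lay 48.9 kb from Klf4, a zinc-finger reprogramming factor, at chr4:55454248-55478195. These 9 rows held 203, 246 and 196 CPM without Nanog and 383, 403 and 386 CPM with it. The lines were well separated (log2 fold change 0.86, SE 0.08, adjusted p = 6.31e-08, edgeR, n = 3 and 3), and 7 rows rose. The strongest of them went from 86.1, 111 and 82.6 CPM to 148, 146 and 146 CPM. The cluster of 8 rows over Klf4 itself had 74.3 CPM without Nanog and 87.0 CPM with it, which was not called (adjusted p = 0.115, edgeR), and none of its rows was.

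Esrrb, the gene of the profiled factor, had 22 rows at chr12:86448526-86520309. They held 266, 249 and 307 CPM without Nanog and 355, 402 and 364 CPM with it. All libraries with Nanog were higher, and the sum rose by 0.44 on the log2 scale (SE 0.07, adjusted p = 0.000164, edgeR, n = 3 and 3). Of its rows 8 rose and none fell, and the largest rise was from 4.47, 2.52 and 1.96 CPM to 9.62, 11.3 and 7.64 CPM. Prdm14, a repressor that guards the naive state, had 25 rows that held 334, 331 and 342 CPM without Nanog and 424, 456 and 444 CPM with it. The sum rose by 0.39 on that scale (SE 0.06, adjusted p = 5.84e-05, edgeR, n = 3 and 3), and 5 rows rose. The T-box factor gene Tbx3 had 2 dense clusters, of which the one over the gene rose by 0.40. The other, 19.6 kb away, had a log2 fold change of 0.26, which was called (adjusted p = 0.02, edgeR) but not without library B (0.22, adjusted p = 0.114, edgeR) or C (0.28, adjusted p = 0.0508, edgeR) of the line with Nanog.

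The sums at the remaining naive genes were not called, and the values given here lay above 0. At Nanog, the deleted gene, 8 rows held 162, 188 and 155 CPM without Nanog and 190.1, 202 and 176 CPM with it, and the ranges overlap (log2 fold change 0.17, adjusted p = 0.135, edgeR). With B of the line without Nanog left out, the value was 0.26 and was called. The sums at Tfcp2l1 (0.15), Fgf4 (0.14), Klf2 (0.11), Klf5 (0.07), Zfp42 (0.06) and Nr5a2 (0.03) were not called either, although Tfcp2l1 was called when the same library was left out (0.20). At Zfp42, which encodes the stem cell marker REX1, rows had moved apart (adjusted p = 1.11e-08, edgeR diffSpliceDGE). Of its 13 rows 4 rose, 1 of them from 10.0 to 21.0 CPM, and 1 stronger row fell from 60.8 to 46.3 CPM. At Klf5, 2 rows rose and 3 fell, and the row with the largest rise went from 15.6 to 29.6 CPM. No dense cluster was found at Nr0b1 or Lefty1.

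**Figure D5:**
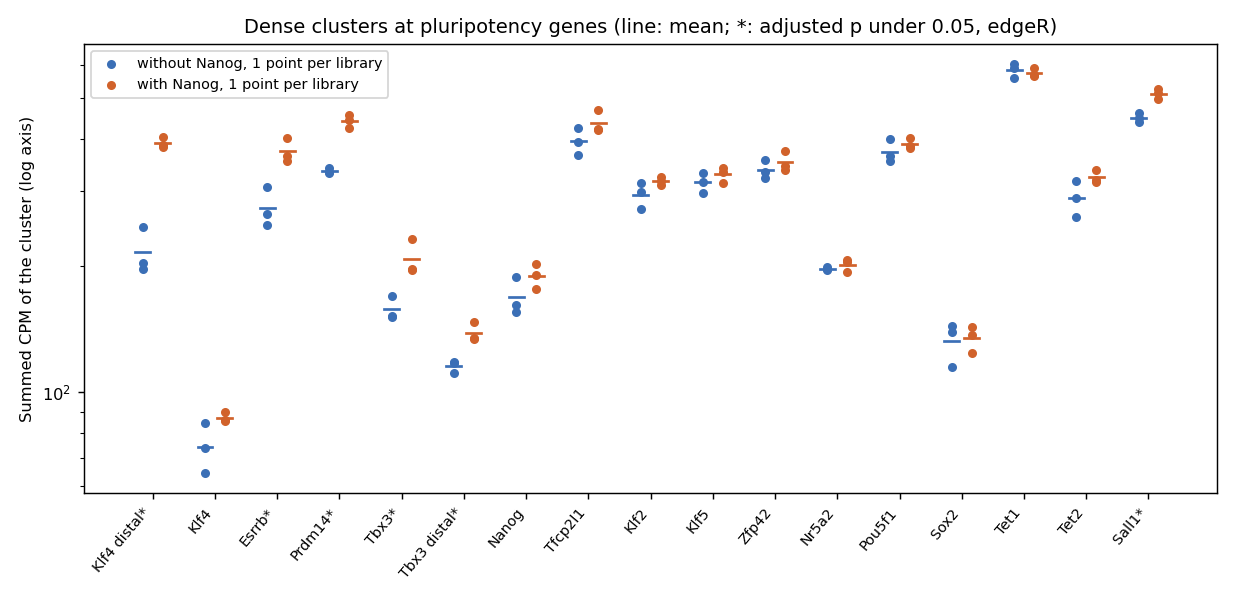
Points are the summed CPM (log axis) of each library for 17 dense clusters at pluripotency genes, with lines at the means of the 3 libraries per line and an asterisk where the sum was called. The distal Klf4 cluster shows the widest separation, 203, 246 and 196 CPM against 383, 403 and 386 CPM, while the points of Pou5f1, Sox2 and Tet1 overlap between the lines.

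At general pluripotency genes, 1 of 17 clusters was higher and 1 lower, with a median log2 fold change of -0.03, while rows had moved apart in 14. These 17 clusters held 248 rows. Rows had moved apart in 62.3% of all dense clusters and in 80.5% of those with 12 to 19 rows. The called sums were those at Sall1 (0.19) and Utf1 (-0.20), and they lost their calls in 3 and 4 of the 6 fits without 1 library (0.17 to 0.21 and -0.22 to -0.18). At Pou5f1, which encodes OCT4, 18 rows held 399.8, 364 and 353 CPM without Nanog and 385, 401 and 379.8 CPM with it. The sum was not called (0.06), but 4 rows rose and 1 fell, and a weak row went from 0.983 to 2.94 CPM. Neither of the 2 clusters at Sox2 was called, nor was any of their rows. The 30 rows at Tet1, a DNA demethylase gene, held 582 CPM without Nanog and 573 CPM with it, and 3 rose and 4 fell.

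Formative and primed epiblast genes had 12 clusters, 4 higher and 3 lower, and rows had moved apart in all 12. These 12 held 166 rows, and the share with rows apart was 80.5% over all dense clusters of 12 to 19 rows. In every alternative fit, 2 stayed higher and 1 lower. Without library A of the line without Nanog or C of the line with it, 2 were higher and 1 lower. Foxd3, a forkhead factor of the early embryo, had 19 rows at chr4:99612702-99675685 that held 286, 321 and 283 CPM without Nanog and 428, 499.8 and 444 CPM with it. The lines did not overlap (log2 fold change 0.63, SE 0.07, adjusted p = 1.46e-06, edgeR, n = 3 and 3). Of its rows 7 rose, and 1 of them went from 13.8, 15.1 and 11.4 CPM to 70.0, 93.5 and 86.4 CPM. The cluster over Zic2 and Zic5 rose by 0.56 on the log2 scale, from 105 to 155 CPM. Pou3f1, which encodes OCT6, fell by 0.35 on that scale. The cluster over Otx2 was called lower (-0.27, adjusted p = 0.0262, edgeR), but it lost the call in 5 of the 6 fits without 1 library, where it ranged from -0.38 to -0.16, the latter without library C of the line without Nanog. The cluster at Dnmt3a, a de novo DNA methyltransferase gene (-0.33), lost its call after thinning to equal totals and in 3 of those fits (-0.45 to -0.24).

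Clusters at lineage genes moved in both directions. Of 14 clusters at primitive endoderm genes, 2 were higher and 4 lower, with a median of -0.14, and 1 and 3 stayed called in every alternative fit. Amn, which encodes the endocytic partner of cubilin, fell from 109 to 73.4 CPM (log2 fold change -0.57, adjusted p = 0.000169, edgeR). The receptor gene Pdgfra (-0.39) and the laminin gene Lamb1 (-0.48) fell as well, and the laminin gene Lama1 rose (0.43). All 3 clusters at neuroectoderm genes were called higher, though the one at Pax3 (0.30) lost its call in 4 of the 6 fits without 1 library (0.25 to 0.35). At Pax6, the eye and forebrain factor, 8 rows held 74.9, 71.6 and 83.2 CPM without Nanog and 135, 138 and 136 CPM with it. That is a log2 fold change of 0.83 (SE 0.09, adjusted p = 6.39e-07, edgeR, n = 3 and 3), and 1 row went from 22.8 to 63.2 CPM. Of 7 clusters at trophoblast genes, 2 were higher and 1 lower. Those at Bmp4 (0.74) and Tfap2a (0.68) rose, and the one at Eomes was called lower (-0.19, adjusted p = 0.0457, edgeR). The Eomes call was lost in 5 of the 6 fits without 1 library (-0.23 to -0.15).

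Clusters at signalling genes were called in unequal shares. At TGF-beta, Nodal and BMP genes 4 of 11 clusters were higher and none lower (median 0.19), among them 23 rows over Acvr1b and Acvrl1, both type I receptors, which went from 221 to 301 CPM. Of the 4, 2 stayed called in every alternative fit. The cluster over Id3, a BMP target gene (0.19), lost its call in 5 of the 6 fits without 1 library, and that over Ski, a SMAD corepressor gene (0.28), without library B of the line with Nanog, where 2 of the 11 clusters were called. At WNT genes 2 of 12 clusters were higher, with 44.2 CPM at Gsk3b, the beta-catenin kinase, against 32.1 CPM without Nanog. The other was at the effector gene Tcf7l2 (0.34), which lost its call in 4 of the 6 fits without 1 library (0.24 to 0.47). At LIF and STAT3 genes none of 13 clusters was called in the main edgeR fit or by DESeq2, and 1 had an unadjusted p under 0.05 by edgeR. Without B of the line without Nanog 1 was called higher, and 1 with an offset that follows signal strength. With the column letter as replicate block 2 were called higher. At FGF and ERK genes 1 of 15 was higher and 1 lower. These were Dusp1, an ERK phosphatase gene (0.46), and the cluster over the ERK1 gene Mapk3 (-0.30), and both stayed called in every alternative fit.

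Nuclear receptor and coregulator genes had 12 clusters, 4 higher and 2 lower. The corepressor gene Nrip1 had 7 rows that held 273, 281 and 264 CPM without Nanog and 175, 195 and 183 CPM with it. The lines did not overlap and the sum fell by 0.56 on the log2 scale (SE 0.07, adjusted p = 4.72e-06, edgeR, n = 3 and 3). A single row accounted for much of it, going from 140.0, 127 and 128 CPM to 76.7, 80.3 and 80.7 CPM. Clusters at Ncoa1, a coactivator (0.52), Ncor1, a corepressor (0.35), and the orphan receptor gene Nr4a1 (0.35) rose. Of 16 clusters at chromatin and DNA methylation genes 4 were higher and 1 lower, and 1 of each stayed called in every alternative fit. The cluster at Eed, a PRC2 subunit gene (0.30), lost its call with DESeq2 and in 2 of the 6 fits without 1 library (0.21 to 0.38). Without library C of the line without Nanog, or A or B of the line with it, 2 of the 16 were higher. The cluster 32.4 kb from the deacetylase gene Hdac2 rose from 59.0 to 94.2 CPM, and the one near Jarid2, a PRC2 subunit, fell by 0.26 on the log2 scale.

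Of 10 clusters at housekeeping genes none was higher and 3 were lower, with a median of -0.16. Of the 3, 1 stayed called in every alternative fit. DESeq2 called none higher and 1 lower, and 1 cluster was higher at an unadjusted p under 0.05 by edgeR. The cluster over Gapdh and Chd4 (-0.20) lost its call with DESeq2 and in 4 of the 6 fits without 1 library (-0.25 to -0.16). The cluster at Pgk1, a glycolytic gene, held 281, 179 and 156 CPM without Nanog and 169, 103 and 102 CPM with it. Library A was the highest of each line and the ranges overlap. Its log2 fold change of -0.71 became -0.42 without library A of the line without Nanog (adjusted p = 0.0621, edgeR), where 1 of the 10 clusters was called lower. Its call was lost with DESeq2 as well. At MYC and cell cycle genes 3 of 10 clusters were higher, including 30 rows over Cdkn1a, a cell cycle inhibitor gene, and Srsf3 (0.30). The others were 2 clusters at Myc (0.32 and 0.28), which lost their calls in 4 and 5 of the 6 fits without 1 library (0.19 to 0.45 and 0.22 to 0.34). Mitochondrial genes had 8 clusters, 2 higher and 1 lower, at Cs (0.22), Cox5a (0.25) and Sdhb (-0.25), and each lost its call in at least 3 of those fits. The only cluster at a fibroblast gene, Fn1 for fibronectin, rose from 74.7 to 112 CPM.

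Dense clusters also held 146 of the 1005 miRNA hairpins of RefSeq, in 115 clusters, of which 13 were higher and 13 lower. That is 11.3% each, against 17.6% and 13.1% of all dense clusters, a difference that was not tested. The cluster of 28 rows at chr7:3165093-3228290 covers the miR-290 to miR-295 genes, the main miRNAs of mouse embryonic stem cells, and was chosen after its values were seen. Some of their mature 3p strands, not all, are shown because these share a seed, bases 2 to 8, at least in part. The seed is in capitals.

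miR-291a-3p: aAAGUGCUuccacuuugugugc
miR-294-3p: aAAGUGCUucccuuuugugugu
miR-295-3p: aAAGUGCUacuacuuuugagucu
miR-291b-3p: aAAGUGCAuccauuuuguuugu
miR-290a-3p: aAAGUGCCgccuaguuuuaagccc

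The first 3 share the seed AAGUGCU, and the other two share its first 6 bases. The cluster held 644, 612 and 631 CPM without Nanog and 602, 559 and 613 CPM with it, and the ranges overlap. The sum was not called (log2 fold change -0.09, SE 0.06, adjusted p = 0.279, edgeR, n = 3 and 3), but its rows had moved apart (adjusted p = 8.13e-11, edgeR diffSpliceDGE). A row upstream of the hairpins rose from 18.6, 17.1 and 16.3 CPM to 39.1, 38.8 and 42.9 CPM, while 4 rows fell.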

How the data were processed

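ESRRB ChIP was measured in 3 libraries of each of 2 lines. The authors deposited whole-number read counts per region, not normalized, and a peak list per line with positions alone; their labels read as peaks shared by replicates. Per the submitters' processing notes, tools include Bowtie2, MACS2, SAMtools 1.4.1, bedtools 2.26.0 and mm10; the sources used here give no roles, settings or counter. Per the labels' protocols, fixation was by formaldehyde alone or with a second agent; which sample had which is not given.

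From the deposited counts, edgeR 4.0.16 in R 4.3.3 (TMM, filterByExpr, glmQLFit, glmQLFTest, Benjamini-Hochberg, threshold 0.05) was fitted to all rows and, separately, to sums over all stitched units, with the line alone as term; diffSpliceDGE compared rows within units. A fold change is relative to its fit's scaling. Single values used exact permutation tests. Named clusters were the largest, strongest, most changed and most divided ones, up to 4 per gene list by adjusted p, and those at chosen pluripotency genes; 107 qualified and part are described; a housekeeping cluster is not reported here. Members and lists were chosen with earlier results of these data known. Scripts were tested on simulated data. Alternatives were other scalings, filters, gaps, row minimums, DESeq2 1.42.0, limma 3.58.1, thinning, a letter block and leaving out libraries. Coordinates are 1-based.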

Additional observations from a re-analysis of the deposited data

How the results depend on the processing

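All 895 called clusters kept their sign in each of the 13 refits, and 586 to 895 stayed called. Of 67 named clusters that were called, 45 stayed called in every alternative fit, with limma on the mean log-CPM left out of that count. Dense rows lower numbered 1428 after thinning to equal totals. DESeq2 called 1621 rows higher and 1538 lower. Fits without 1 library ranged from 1510 to 3096 rows higher, 1369 to 2621 lower, 340 to 597 clusters higher, 223 to 492 lower and 1163 to 1993 with rows that moved apart. A 5 kb gap kept fewer rows and clusters, with 863 of 8774 tested rows higher and 702 lower. Of its 1132 clusters 208 were higher (18.4%), 137 lower (12.1%) and 546 had rows apart (48.2%). A 20 kb gap gave 3700 of 41825 tested rows lower (8.85%). With 8 or more rows required, 282 of 1641 clusters were higher (17.2%), 237 lower (14.4%) and 1181 apart (71.97%). In the main setting these shares of clusters were 17.6%, 13.1% and 62.3%, and 9.33% of rows were higher and 8.46% lower. Counts of called sums thus moved more than their shares. By limma on the mean log-CPM of rows, 119 clusters were higher and 39 lower. Stitching only rows of the list without Nanog gave 379 clusters, 106 higher and 34 lower. The excess of dense over lone rows per kb (log2) passed the exact permutation test with 8 or more rows (0.0789), as CPM per row (0.278) and as a mean of log2 values (0.0733). By reciprocal 50% overlap, 27.6% of dense and 28.5% of lone rows were in both lists, against 40.3% and 35.3% by overlap of any length. For these shifts the cause was not tested.

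Uncalled values near 0 changed sign. The sum at Tet1 gave 0.0133 with the loess offset, and that at Sox2 (12 rows) -0.0428 after thinning. Fits without 1 library ranged from -0.0514 to 5.9e-05 at Tet1, -0.0327 to 0.0440 at Dlgap1, -0.0726 to 0.0930 at Sox2 and -0.0132 to 0.0525 at Arhgef19. The strongest Irf2bpl row gave 0.108 with the loess offset and ranged from -0.133 to 0.00726 without 1 library.

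Columns carry letters in place of replicate numbers. Deviations of same-lettered libraries correlated at 0.08, 0.22 and 0.13, and each correlated best with its own letter, a hint from the data and not the design. With the letter as replicate block, 3380 dense rows were higher and 3137 lower, 701 clusters higher and 551 lower, and 2042 apart.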
